A study of Mus musculus with 10 samples.

Results

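The genes described here are 10 genes of renal calcium and magnesium transport, taken from the 55359 genes of the deposited table by gene symbol: Trpm6, Trpm7, Trpv5, Calb1, S100g, Slc8a1, Atp2b1, Atp2b4, Pvalb and Casr. All 10 were found, and all 10 passed the filter on low values (at least 1 FPKM, fragments per kilobase of exon, scaled to library size, in 5 or more libraries), as did 13324 genes in all. The 5 IRI libraries came from kidneys of male mice after 30 min of ischaemia and 24 h of reperfusion, and the 5 sham libraries from kidneys of male mice after sham surgery. Strain, age, diet and the interval between sham surgery and sampling were not given in the sources used here, nor whether ischaemia was on one or both sides. No label states that each library is a separate mouse. The p-values here therefore measure only how these libraries vary, which may in part be technical.

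Filtered calcium and magnesium are mostly reclaimed between cells in the proximal tubule and the thick ascending limb, and the fine adjustment takes place through cells of the distal convoluted and connecting tubule. There calcium enters through the apical channel TRPV5, is carried across the cell by the calbindins, and leaves at the basolateral side through the sodium-calcium exchanger NCX1 (Slc8a1) and the plasma membrane calcium pumps (Atp2b1, Atp2b4). Magnesium enters the distal convoluted tubule through TRPM6, and the calcium-sensing receptor CaSR acts on the thick ascending limb. Because whole kidney was sequenced, fewer cells of a segment and less RNA per cell cannot be told apart.

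Library totals ranged from 13147899 to 18603272 counts. IRI replicate 1 stood apart. Mitochondrial rRNA took 2.31% of its counts, while the other 4 IRI libraries had 0.214% to 0.450% and sham libraries 0.230% to 0.267%. As a check of the tissue label, the 10 proximal tubule markers summed to 224 to 1226 FPKM in IRI and 2827 to 3529 FPKM in sham. All 10 were lower in IRI by edgeR's quasi-likelihood test, as were 32.4% of all genes tested. The 1226 FPKM was that of IRI replicate 1, and the next highest IRI library had 479 FPKM. FPKM values follow the library totals, whereas fold changes use TMM factors (means 1.09 in IRI and 0.916 in sham), so the 2 scales differ. Scaling the fit by library totals moved the median log2 fold change of all genes up by 0.25. It made 66.7% of all calls higher in IRI, against 51.6% with TMM factors.

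Of the 10 genes, 2 were higher in IRI (Trpv5 and Atp2b1), 4 were lower (Pvalb, Slc8a1, Calb1 and Trpm7) and 4 were not called (Trpm6, S100g, Atp2b4 and Casr), by edgeR's quasi-likelihood test with adjusted p under 0.05. Over all 13324 genes tested, 34.5% were higher, 32.4% lower and 66.9% called in either direction, so a share of 6 of 10 lies near the background. The median log2 fold change of the 10 genes was -0.06, against 0.05 over all genes, and it was 0.19 under library totals. The FPKM of the groups did not overlap in 4 of the 10 genes (Trpm7, Slc8a1, Atp2b1 and Pvalb), where 55.3% of all tested genes showed no overlap. The counts of 2 higher and 4 lower were also obtained without IRI replicate 1, and without each of the other libraries in turn. By size of change, Pvalb ranked 109, Slc8a1 957, Calb1 2421 and Trpm7 2913 among all 4320 lower genes. Trpv5 ranked 1451 and Atp2b1 3333 among all 4599 higher genes.

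**Figure D1:**
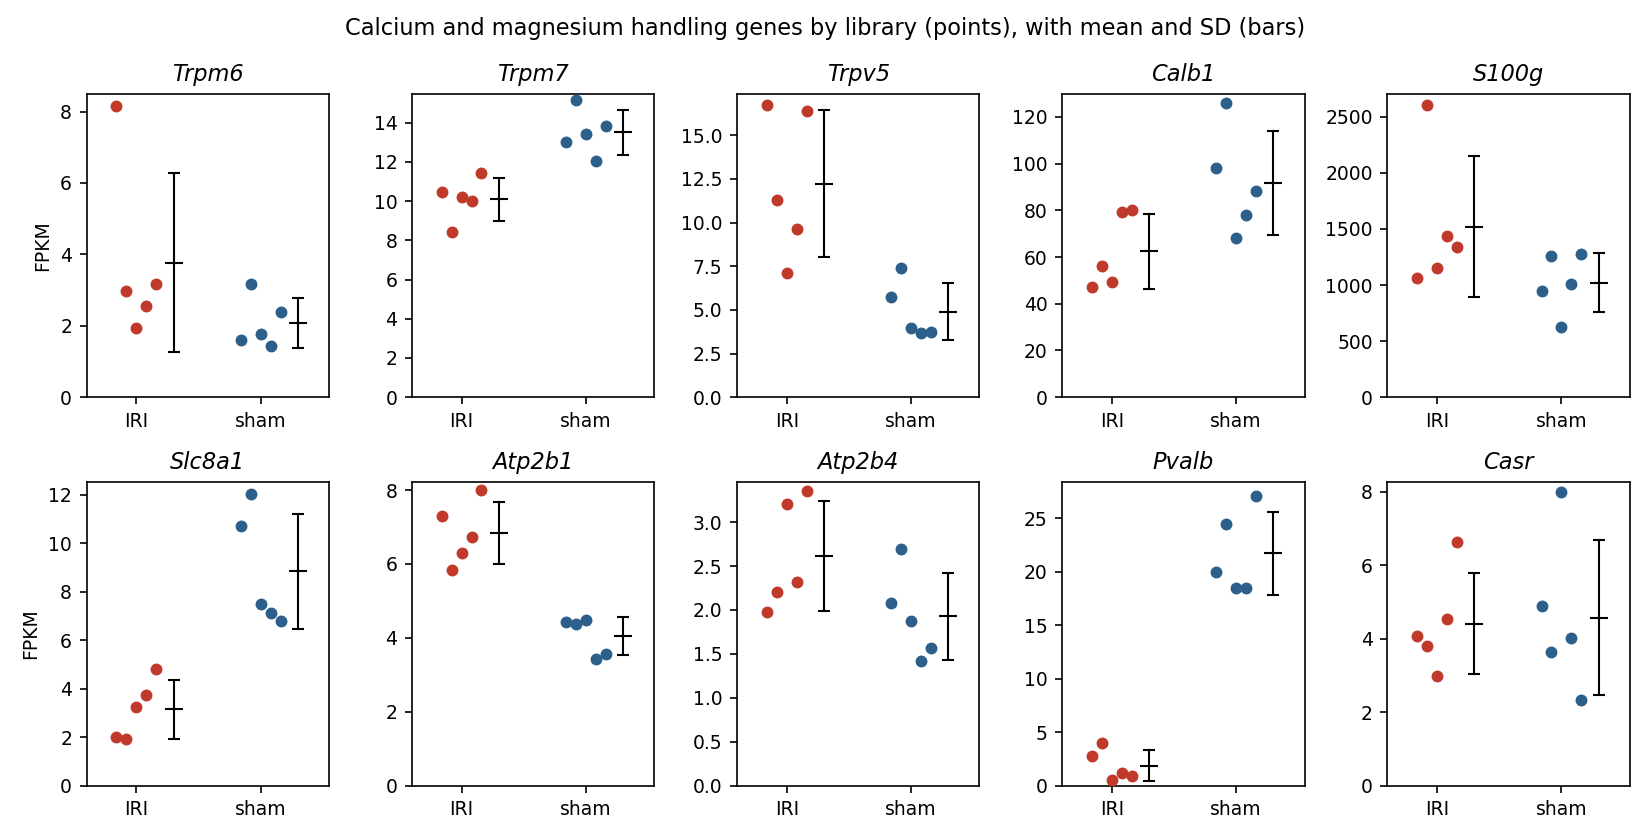
FPKM of each calcium or magnesium handling gene (vertical axes, linear from 0, a scale of its own for each gene) in the 5 IRI libraries (left, red) and the 5 sham libraries (right, blue), with the mean and SD as black bars. Pvalb lies between 0.50 and 3.95 FPKM in IRI and between 18.49 and 27.04 FPKM in sham, and single high points mark Trpm6 in IRI replicate 1 (8.16) and S100g in IRI replicate 2 (2609).

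The entry channel Trpv5 was higher in IRI. It lies on chromosome 6 from 41629107 to 41657703 on the minus strand (GRCm39, deposited coordinates of the whole gene). Its level was 16.72, 11.28, 7.09, 9.66 and 16.39 FPKM in IRI replicates 1 to 5, against 5.71, 7.41, 3.95, 3.69 and 3.75 FPKM in sham replicates 1 to 5. The groups overlapped only in that IRI replicate 3 lay below sham replicate 2. The log2 fold change was 1.07 ± 0.28 (SE, edgeR adjusted p = 0.00464), and it stayed between 0.88 and 1.30 with any 1 library left out. Trpv6, the second epithelial calcium channel and a neighbour of Trpv5 on chromosome 6, had 1.72, 1.12, 1.38, 1.51 and 3.02 FPKM in IRI, against 0.27, 0.41, 0.48, 0.50 and 0.31 FPKM in sham, with no overlap (log2 fold change 1.89 ± 0.29, edgeR adjusted p = 0.000107). Trpv5 stayed the more abundant of the 2 channels, at 5.14 to 10.1 times the FPKM of Trpv6 in IRI libraries and 7.38 to 21.1 times in sham libraries. The 2 genes are close paralogs, and no source used here states how reads that match both were counted.

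The upstream sequence of Trpv5, the largest rise among the 10 genes, is shown beside that of Pvalb, the largest fall, from RefSeq on build GRCm38.p6. Each run is the 250 bases before an annotated transcript start, 5′ to 3′ on the strand of the gene. The window of Trpv5 is chr6:41680724-41680973, and those of Pvalb, which has 2 annotated starts, are chr15:78206401-78206650 and chr15:78204238-78204487, all on the minus strand.
Trpv5: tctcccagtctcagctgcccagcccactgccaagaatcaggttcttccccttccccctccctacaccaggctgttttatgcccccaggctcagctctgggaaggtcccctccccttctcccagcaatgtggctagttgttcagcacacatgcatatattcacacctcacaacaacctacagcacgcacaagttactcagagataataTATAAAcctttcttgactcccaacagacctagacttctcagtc
Pvalb, first start: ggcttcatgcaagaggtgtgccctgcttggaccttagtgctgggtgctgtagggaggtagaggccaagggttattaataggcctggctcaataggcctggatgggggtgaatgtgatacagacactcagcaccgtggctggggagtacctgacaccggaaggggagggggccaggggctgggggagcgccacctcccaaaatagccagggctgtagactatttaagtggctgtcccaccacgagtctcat
Pvalb, second start: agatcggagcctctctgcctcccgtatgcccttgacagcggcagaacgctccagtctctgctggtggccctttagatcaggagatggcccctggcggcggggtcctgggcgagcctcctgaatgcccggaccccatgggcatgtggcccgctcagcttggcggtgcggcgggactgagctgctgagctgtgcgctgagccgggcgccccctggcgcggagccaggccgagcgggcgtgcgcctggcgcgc
Capitals mark the matches of 3 motifs searched on both strands, the TATA box TATAAA, the AP-1 motif TGANTCA and the HNF1 motif GTTAAT. The only match in any of the 11 windows found for 9 of the 10 genes (Calb1 had no entry) was the TATA box of Trpv5, at bases 43 to 38 before the start. Of 32851 such windows in RefSeq, 12.4% hold the TATA box letters, 6.75% the AP-1 motif and 6.43% the HNF1 motif. These are letter matches only, and the counts, summed over each gene, do not tell which start of Pvalb was used.

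Of the intracellular calcium carriers, Calb1 fell and S100g was not called. Calb1 encodes calbindin-D28k, the main calcium shuttle of the connecting tubule, and lies on chromosome 4 from 15881264 to 15908064. Its level was 47.13, 56.22, 49.28, 79.20 and 80.14 FPKM in IRI, against 98.09, 126.04, 68.12, 78.19 and 88.08 FPKM in sham. IRI replicates 4 and 5 lay within the sham range, and the other IRI libraries below it. The log2 fold change was -0.82 ± 0.19 (edgeR adjusted p = 0.00245, or -0.56 under library totals with adjusted p = 0.0233). S100g, which encodes the smaller calbindin-D9k, was by far the most abundant of the 10 genes, with 91.3%, 96.4%, 93.1%, 92.3% and 90.8% of their summed FPKM in IRI, against 85.4%, 86.4%, 83.1%, 88.6% and 89.5% in sham. It had 1059, 2609, 1149, 1440 and 1338 FPKM in IRI, against 943, 1259, 629, 1010 and 1272 FPKM in sham, and was not called (0.31, 95% interval -0.25 to 0.87, edgeR adjusted p = 0.302). Without IRI replicate 2, its highest library, the log2 value was 0.03. S100g overlaps Ctps2 on the opposite strand of the X chromosome, a gene with 6461 counts over the 10 libraries, against 96325 for S100g.

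Parvalbumin fell most. Pvalb encodes a calcium-binding protein of fast muscle and of some neurons, which in the kidney marks the early distal convoluted tubule. The gene lies on chromosome 15 from 78075314 to 78090600. Its level was 2.78, 3.95, 0.50, 1.18 and 0.91 FPKM in IRI, against 19.98, 24.48, 18.50, 18.49 and 27.04 FPKM in sham. Every IRI library lay far below every sham library. These values rest on 9 to 54 counts per IRI library and 254 to 474 per sham library. The log2 fold change was -3.82 ± 0.43 (edgeR adjusted p = 9.1e-06), a 14.1-fold lower level and rank 109 by size among the 4320 lower genes. Beside these values, the 9 markers of skeletal muscle, which also expresses Pvalb, summed to 1.00 to 2.03 FPKM in IRI and 1.24 to 1.96 FPKM in sham, and none passed the filter. Myh4 was at 0 in all 10 libraries, while Mylpf, named after its values were seen, had 0.23 to 0.86 FPKM in IRI and 0.76 to 1.38 FPKM in sham. The part of muscle RNA in the Pvalb values was not tested.

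Of the extrusion genes, the exchanger Slc8a1 fell and the pump Atp2b1 rose. Slc8a1, which encodes the exchanger NCX1, spans 81680534 to 82045806 on chromosome 17. It had 1.99, 1.94, 3.23, 3.75 and 4.82 FPKM in IRI, against 10.73, 12.02, 7.51, 7.13 and 6.80 FPKM in sham, with no overlap. Its log2 fold change was -1.76 ± 0.25 (edgeR adjusted p = 6.62e-05), a 3.39-fold lower level. Atp2b1, which encodes the pump PMCA1, lies on chromosome 10 from 98750268 to 98862005. It had 7.31, 5.84, 6.31, 6.72 and 7.99 FPKM in IRI, against 4.43, 4.37, 4.49, 3.43 and 3.55 FPKM in sham, also with no overlap, and rose by 0.50 ± 0.12 (edgeR adjusted p = 0.00219). Atp2b4, which encodes PMCA4, had 1.98, 2.20, 3.21, 2.32 and 3.36 FPKM in IRI, against 2.08, 2.69, 1.87, 1.42 and 1.57 FPKM in sham. These ranges overlapped, and no change was called (0.18, 95% interval -0.23 to 0.59, edgeR adjusted p = 0.421). Slc8a1, Atp2b1 and Atp2b4 are also transcribed in vessels, and beside these values the 6 endothelial markers summed to 92.9 to 137 FPKM in IRI and 56.4 to 72.0 FPKM in sham. Smooth muscle, pericyte and fibroblast markers, 8 genes, summed to 92.9 to 287 FPKM in IRI and 59.5 to 80.5 FPKM in sham. The 92.9 FPKM of the second list was that of IRI replicate 1, and the next lowest IRI library had 214 FPKM. Of the endothelial markers 4 were higher and 0 lower in IRI, and of the second list 3 were higher (5 under library totals) and 1 lower. Over all tested genes, 34.5% were higher and 32.4% lower. The part of these vessel and stroma cells in the result was not tested.

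Of the magnesium channels, Trpm7 fell and Trpm6 was not called. Trpm6 encodes the channel-kinase of the distal convoluted tubule and lies on chromosome 19 from 18727347 to 18869875. It had 8.16, 2.98, 1.94, 2.55 and 3.17 FPKM in IRI, against 1.6, 3.16, 1.77, 1.44 and 2.39 FPKM in sham. Only IRI replicates 1 and 5 exceeded the highest sham library, replicate 5 only just. No change was called with TMM factors (0.64, 95% interval -0.22 to 1.49, edgeR adjusted p = 0.170). Without IRI replicate 1, the library rich in mitochondrial rRNA, the log2 value was 0.06, and under library totals Trpm6 was called higher (0.85, edgeR adjusted p = 0.0493). Trpm7, the widely expressed relative that joins TRPM6 in mixed channels, spans 126633485 to 126718150 on chromosome 2. It had 10.44, 8.40, 10.21, 10.00 and 11.41 FPKM in IRI, against 13.01, 15.15, 13.44, 12.07 and 13.83 FPKM in sham. The groups did not overlap, and the log2 fold change was -0.67 ± 0.10 (edgeR adjusted p = 0.000112, or -0.42 under library totals with adjusted p = 0.0021).

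Casr, the calcium-sensing receptor, lies on chromosome 16 from 36314058 to 36382503. Its level was 4.06, 3.79, 2.98, 4.53 and 6.64 FPKM in IRI, against 4.88, 3.65, 7.98, 4.01 and 2.34 FPKM in sham, and the sham range enclosed every IRI value. The log2 fold change was -0.31 (95% interval -0.93 to 0.31, edgeR adjusted p = 0.358). It was -0.01 without sham replicate 3, the highest library.

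**Figure D2:**
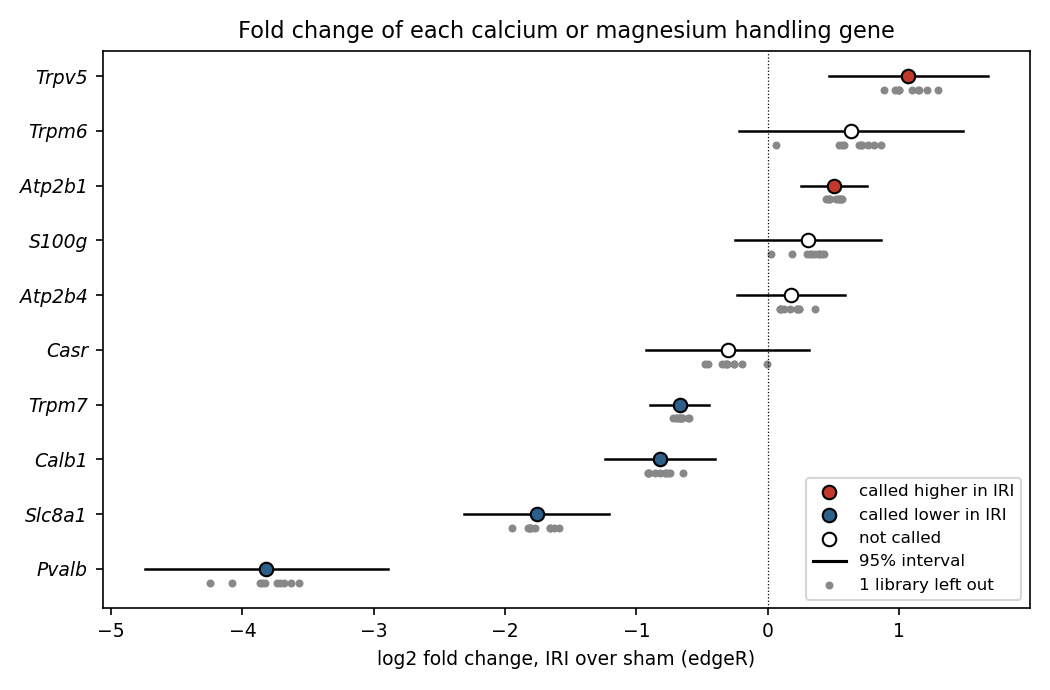
Log2 fold change of each calcium or magnesium handling gene, IRI over sham, by edgeR (circles), with 95% intervals (lines) and the values with 1 library left out (small grey points). Only Trpv5 (1.07) and Atp2b1 (0.50) are called above 0, the interval of Trpm6 reaches from -0.22 to 1.49, and Pvalb (-3.82) lies far below the others.

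Ordered by mean FPKM, the 10 genes ran S100g, Calb1, Trpv5, Trpm7, Atp2b1, Casr, Trpm6, Slc8a1, Atp2b4 and Pvalb in IRI, and S100g, Calb1, Pvalb, Trpm7, Slc8a1, Trpv5, Casr, Atp2b1, Trpm6 and Atp2b4 in sham. Pvalb was thus the lowest in IRI and the third highest in sham. In IRI the ranges of Trpv5 and Trpm7 overlapped, as did each neighbouring pair from Atp2b1 downwards. In sham the ranges of neighbours overlapped between Slc8a1 and Trpv5, Trpv5 and Casr, Casr and Atp2b1, and Trpm6 and Atp2b4.

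Ratios of 2 genes within a library do not depend on the scaling between libraries, and 11 such ratios were compared. The test was an exact permutation test, two-sided, whose smallest p is 0.00794 with 5 libraries against 5, with Benjamini-Hochberg adjustment over the 11. Of these, 9 passed an adjusted p of 0.05. The pairs were chosen with earlier results known and no ratios of other genes were compared, so the count says nothing particular about these genes. Slc8a1 had 0.272 to 0.603 times the FPKM of Atp2b1 in IRI, against 1.67 to 2.75 times in sham. The exchanger was thus below the pump in every IRI library and above it in every sham library. The log2 count ratio was -0.90 ± 0.50 in IRI and 1.4 ± 0.28 in sham (SD, n = 5 each), a difference of -2.29 (exact permutation p = 0.00794, adjusted p = 0.0125). Each of these 2 genes alone separated the groups, in opposite directions. The smallest p was thus fixed in advance for this ratio and adds nothing to the single-gene results. Trpv5 rose against its intracellular carrier, at 0.122 to 0.355 times the FPKM of Calb1 in IRI and 0.0426 to 0.0588 times in sham (difference of log2 ratios 1.86, exact permutation adjusted p = 0.0125, no overlap). The 0.355 was that of IRI replicate 1, and the next highest IRI library had 0.204. Within the calbindins, Calb1 had 0.0215 to 0.0599 times the FPKM of S100g in IRI, against 0.0692 to 0.108 times in sham (difference -1.10, exact permutation adjusted p = 0.0125, no overlap). The 0.0215 was that of IRI replicate 2, and the next lowest IRI library had 0.0429.

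Trpm6 over Trpm7 was higher in IRI by 1.15 on the log2 scale, with 1 IRI library within the sham range (exact permutation adjusted p = 0.0194), or by 0.83 without IRI replicate 1 (adjusted p = 0.0388). For Atp2b1 over Atp2b4 the difference was 0.31, and the groups overlapped (exact permutation adjusted p = 0.151).

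Slc12a3, the thiazide-sensitive sodium-chloride cotransporter that defines the distal convoluted tubule, was lower in IRI. It had 46.86, 32.26, 53.18, 47.08 and 73.85 FPKM in IRI, against 103.48, 127.70, 88.39, 82.43 and 77.08 FPKM in sham (log2 fold change -1.18 ± 0.21, edgeR adjusted p = 0.000331). Trpv5, Trpm6, Pvalb and Calb1 were compared with it, and with no other listed marker of the distal tubule. Slc12a3 was among the lowest of those markers, so the differences hold for this gene only. Trpv5 had 0.133 to 0.357 times the FPKM of Slc12a3 in IRI, against 0.0447 to 0.0580 times in sham, a difference of log2 ratios of 2.25 (exact permutation adjusted p = 0.0125). Trpm6 over Slc12a3 was higher in IRI by 1.67 (1.33 without IRI replicate 1), and Pvalb over Slc12a3 differed by -2.93, both with no overlap and an exact permutation adjusted p of 0.0125. Calb1 over Slc12a3 overlapped between the groups, at 0.927 to 1.74 times in IRI and 0.771 to 1.14 times in sham (difference 0.38, exact permutation adjusted p = 0.151). Pvalb and Trpm6, both genes of the distal convoluted tubule, parted most of all the pairs: Pvalb had 0.258 to 1.33 times the FPKM of Trpm6 in IRI, against 7.75 to 12.8 times in sham (difference -4.60, exact permutation adjusted p = 0.0125). The 1.33 was that of IRI replicate 2, and the next highest IRI library had 0.463. Casr over Slc12a1, the sodium-potassium-chloride cotransporter of the thick ascending limb, was higher by 1.51 with overlap (exact permutation adjusted p = 0.0194). Slc12a1 itself fell by 1.79 ± 0.31 (edgeR adjusted p = 0.000264). Of the 9 listed markers of that limb 6 were lower, but Umod (log2 fold change 0.79) and Cldn16 (0.73) were higher. Casr was not compared with the markers other than Slc12a1.

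**Figure D3:**
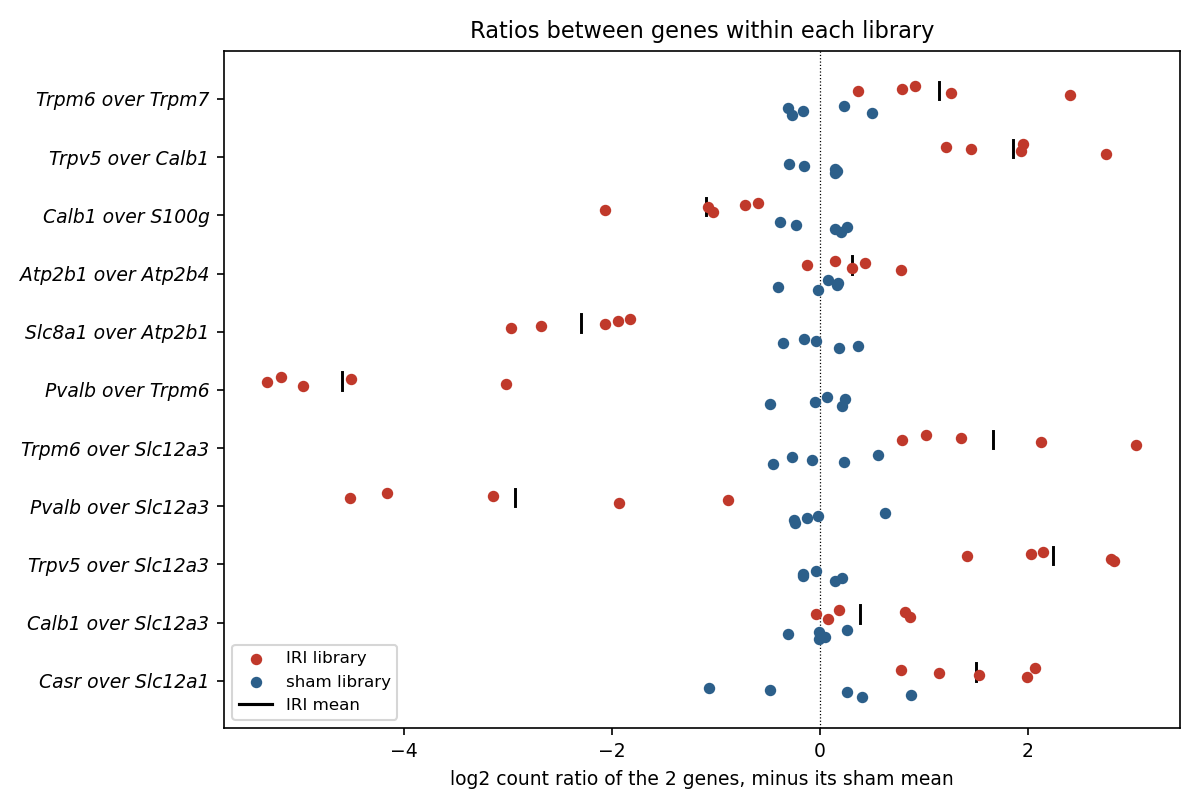
Log2 count ratio of 2 genes within each library, minus the sham mean of that ratio (horizontal axis), for 11 pairs of genes, with IRI libraries above (red), sham libraries below (blue) and the IRI mean as a black bar. The IRI libraries lie apart from the sham libraries in 7 pairs, farthest for Pvalb over Trpm6 (-4.60), and the groups overlap for Trpm6 over Trpm7 (1.15), Atp2b1 over Atp2b4 (0.31), Calb1 over Slc12a3 (0.38) and Casr over Slc12a1 (1.51).

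Beside these values, the 8 markers of the distal convoluted and connecting tubule gave 1 higher (2 without IRI replicate 1 and 2 under library totals), 5 lower and 2 not called in IRI. Klhl3 (-1.95 ± 0.12), Emx1 (-1.78 ± 0.14) and Slc12a3 were lowest. Klk1 was higher (0.50, edgeR adjusted p = 0.00673), and Wnk4 (0.17) and Kcnj10 (0.06) were not called. The summed level of the 8 markers was 2491 to 3257 FPKM in IRI and 1494 to 2138 FPKM in sham, most of it Klk1. Without Klk1 it was 180 to 339 FPKM in IRI and 282 to 413 FPKM in sham. Of 9 markers of the thick ascending limb, 6 were lower, 2 higher and 1 not called in IRI, with Tmem207 (-3.45 ± 0.43), Egf and Cldn10 lowest. Counts of whole kidney, summed over each gene, do not tell from which segment the Cldn10 reads came. Without Umod, their most abundant gene, they summed to 109 to 221 FPKM in IRI and 297 to 588 FPKM in sham (1438 to 2639 FPKM in IRI and 791 to 1762 FPKM in sham with it). Klk1, Umod, Wnk4 and Kcnj10 were singled out after their values were seen. Of the 5 principal cell markers past the filter, 1 was higher and 0 were lower. The higher ones numbered 3 under library totals, 4 in limma on log2(FPKM + 1) or log2(FPKM + 0.1), 4 without sham replicate 3, and 2 without IRI replicate 1, IRI replicate 3 or sham replicate 2. Of 7 neutrophil and macrophage markers 5 were higher and 0 lower (summed level 78.9 to 146 FPKM in IRI and 23.9 to 34.5 FPKM in sham). The 2 not called were the macrophage markers C1qa (0.02) and C1qb (0.19), while Cd68, also a macrophage marker, rose by 2.90. S100a8, Retnlg and Csf3r reached 1 FPKM only in IRI libraries, so they passed the filter through the group where they are high. With no filter, Adgre1 was tested as well, and of 8 markers 5 were higher, 0 lower and 3 not called. C1qa, C1qb, Cd68, Csf3r and Adgre1 were named after their values were seen. The markers of largest log2 change were Slc22a7 (-5.32), Slc7a13 (-4.98) and Lrp2 (-3.16) in the proximal tubule list, Scnn1b (0.44) in the principal cell list, and Retnlg (6.56), S100a8 (5.04) and S100a9 (4.52) in the neutrophil and macrophage list. Leaving out 1 library moved some of them by over 1.5-fold: Lrp2 was -3.87 without IRI replicate 1, Slc22a7 was -5.97 without IRI replicate 2, Retnlg was 5.89 without IRI replicate 1 and 7.41 without sham replicate 3, and S100a8 was 5.84 without sham replicate 3. In the vessel and stroma lists they were Cdh5 (0.87), Pecam1 (0.87) and Kdr (0.55), and Tagln (2.41), Acta2 (1.96) and Pdgfrb (1.08). All these counts are to be read against the 34.5% of all tested genes that were higher and the 32.4% that were lower. The part of these cell types in the results was not tested.

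For each called gene, the most alike tested genes were taken by the root mean square difference in centred log2 CPM (counts scaled to library size) over the 10 libraries, a measure that includes the difference between the groups. Slc8a1 was most like Srcin1 (0.264), Klhl3 (0.266) and Sfrp1 (0.280). Klhl3, a partner of the kinases that control Slc12a3, is itself a distal convoluted tubule marker. None of the other most alike genes, of Slc8a1 or of any other called gene, is in a marker list used here. Trpv5 was most like Tfap2a (0.284), Arnt2 (0.301) and Stc1 (0.308), the last encoding stanniocalcin, a hormone that lowers calcium in fish. Pvalb was most like Hpd (0.320), Erich6b (0.367) and Ftcd (0.385). Calb1 was most like Ttc26 (0.213), Pgam2 (0.225) and Dkk2 (0.229). Trpm7 and Atp2b1 had closer neighbours, Cep250 (0.0871), Dennd1a (0.0882) and Exd2 (0.0980) for Trpm7, and Rai1 (0.0771), Zfp646 (0.0785) and Tmem147os (0.0820) for Atp2b1.

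Other genes of the same pathways are given as counts with the median log2 fold change. They are to be read against the median of 0.05 over all genes, of which 34.5% were higher and 32.4% lower. With 66.9% of all genes called in either direction, the calcium store, magnesium transport and claudin lists lie near the background. No list was tested against it, so the other lists are not shown to differ from it. Of 14 other calcium entry, extrusion and buffering genes, 8 passed the filter, 6 were higher and 2 lower (median 0.78). Trpv6, among the 6, reached 1 FPKM only in IRI libraries, so it passed the filter through the group where it is high. Atp2b2, named after its values were seen, was below the filter (0.02 to 0.18 FPKM in IRI, 0.29 to 0.49 FPKM in sham). With no filter, 12 were tested, 6 were higher and 4 lower (median 0.55). Anxa2 and S100a10, whose proteins form the complex that carries TRPV5 and TRPV6 to the membrane, were among the highest. Anxa2 had 111.45, 179.29, 170.13, 170.96 and 166.82 FPKM in IRI, against 15.73, 10.03, 26.77, 16 and 19.01 FPKM in sham (2.94 ± 0.22, edgeR adjusted p = 5.57e-07). S100a10 reached 241 to 442 FPKM in IRI and 52.2 to 81.0 FPKM in sham (2.12 ± 0.16, edgeR adjusted p = 6.26e-07). Both are also expressed outside the tubule. The 2 lower genes past the filter, named after their values were seen, were Trpv4 (-0.67) and Calm3 (-0.57). Calm3 was not called under library totals (-0.31, edgeR adjusted p = 0.0651).

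Of 10 calcium store genes, 9 passed the filter, 4 were higher, 1 was lower (2 without IRI replicate 1 or IRI replicate 3) and 4 were not called (median 0.09). Of the inositol trisphosphate receptors, channels that release stored calcium, Itpr3 rose, Itpr1 fell and Itpr2 was not called. Itpr3 had 9.11, 9.64, 6.96, 10.67 and 13.15 FPKM in IRI, against 1.09, 1.05, 1.49, 0.86 and 1.00 FPKM in sham (2.92 ± 0.17, edgeR adjusted p = 1.18e-07). Itpr1 had 9.46, 6.88, 12.94, 10.41 and 11.21 FPKM in IRI, against 14.70, 16.96, 17.55, 13.76 and 13.29 FPKM in sham (-0.84 ± 0.15, edgeR adjusted p = 0.000449). By level, Itpr1 was the more abundant in every sham library, and the groups of neither gene overlapped. Stim1, the sensor of store calcium, rose by 0.76 ± 0.16 (edgeR adjusted p = 0.00102).

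Of 9 other magnesium transport genes tested, 2 were higher, 5 lower and 2 not called (median -0.39). Cnnm2, which encodes a basolateral protein of the distal convoluted tubule mutated in human hypomagnesaemia, had 2.37, 2.63, 2.96, 3.38 and 3.6 FPKM in IRI, against 6.79, 7.20, 6.82, 5.75 and 5.63 FPKM in sham (-1.36 ± 0.12, edgeR adjusted p = 1.29e-06). Slc41a1, a magnesium carrier, had 12.06, 14.29, 9.76, 11.02 and 13.09 FPKM in IRI, against 5.23, 4.43, 4.80, 4.10 and 3.94 FPKM in sham (1.17 ± 0.12, edgeR adjusted p = 4.61e-06). Neither pair of ranges overlapped. Magt1 fell by 1.13 ± 0.11 (edgeR adjusted p = 3.37e-06).

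The claudins form the paracellular routes. Of the 4 of 5 past the filter, 1 was higher, 2 were lower and 1 was not called (median -1.31, or -0.48 with all 5 in the fit without a filter). Cldn10, Cldn16 and Cldn19 also stand among the thick ascending limb markers, so those lists do not count separate genes. Cldn10 had 16.99 to 22.30 FPKM in IRI and 86.51 to 98.79 FPKM in sham (-2.49 ± 0.11, edgeR adjusted p = 1.58e-08), and Cldn2, the cation pore of the proximal tubule, 20.88 to 78.02 FPKM in IRI and 103.43 to 163.15 FPKM in sham (-2.11 ± 0.34, edgeR adjusted p = 0.000165). The 78.02 FPKM was that of IRI replicate 3, and the next highest IRI library had 43.68 FPKM. Cldn16, which with Cldn19 forms the calcium and magnesium route of the thick ascending limb, had 8.42 to 16.66 FPKM in IRI and 4.49 to 8.27 FPKM in sham (0.73 ± 0.20, edgeR adjusted p = 0.00697). Cldn14, which blocks that route and is controlled by CaSR, was below the filter, with 0, 16, 49, 22 and 36 counts in IRI, against 2, 2, 5, 0 and 2 counts in sham.

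Of 18 regulators past the filter (19 listed), 4 were higher, 11 lower and 3 not called (median -1.06). This list shares genes with the marker lists, among them Slc12a1, Umod, Egf, Slc12a3 and Klk1, so their counts are not separate evidence. Egf, which encodes a growth factor that stimulates TRPM6, had 17.27, 15.48, 3.23, 5.57 and 5.11 FPKM in IRI, against 75.52, 69.28, 108.31, 80.67 and 66.95 FPKM in sham (-3.32 ± 0.46, edgeR adjusted p = 4.91e-05). Kl, which encodes klotho, a protein known to keep TRPV5 at the cell surface, had 18.11, 13.26, 15.19, 12.40 and 16 FPKM in IRI, against 82.75, 93.90, 75.48, 63.45 and 55.95 FPKM in sham (-2.55 ± 0.18, edgeR adjusted p = 3.6e-07). Neither gene overlapped between the groups. Cyp27b1, the enzyme that makes active vitamin D, had 9.17, 3.69, 38.63, 38.08 and 19.82 FPKM in IRI, against 3.61, 3.05, 1.82, 4.36 and 2.46 FPKM in sham. IRI replicate 2 lay within the sham range, and the log2 fold change was 2.58 ± 0.54 (edgeR adjusted p = 0.00111).

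**Figure D4:**
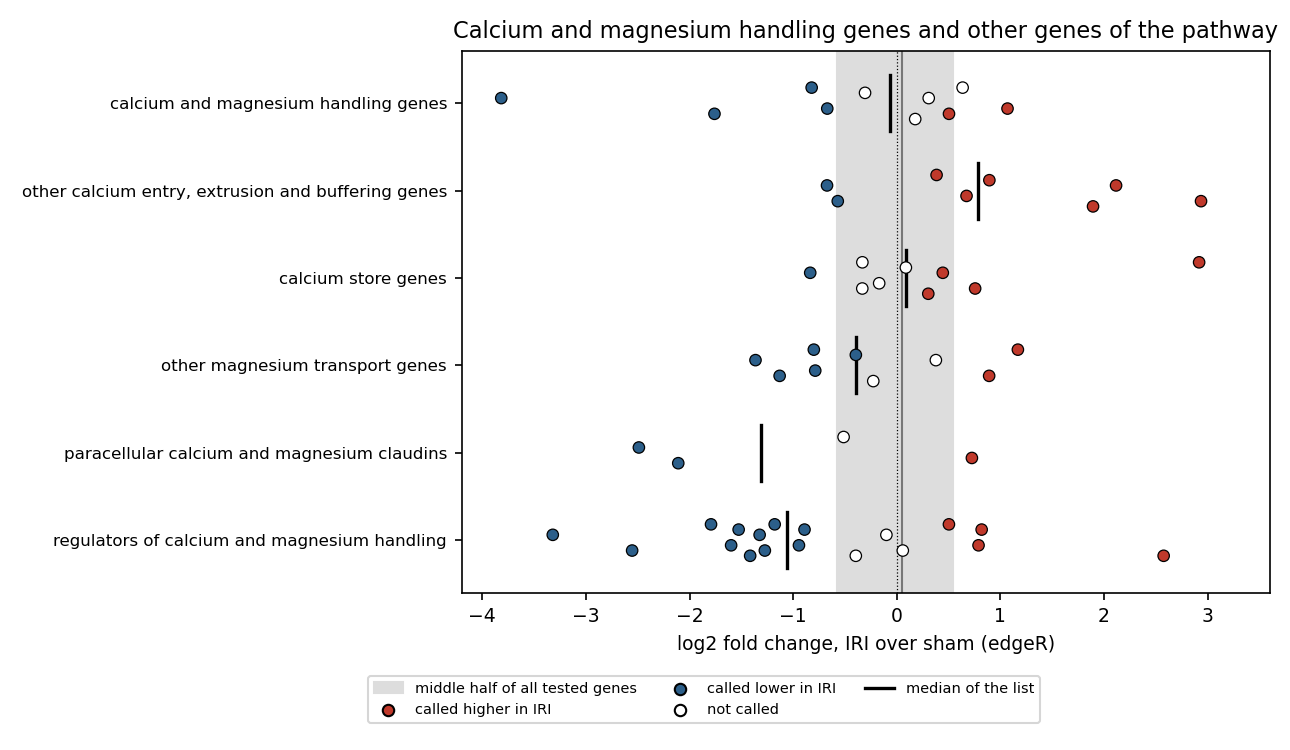
Log2 fold change (IRI over sham, edgeR, horizontal axis) of the 10 calcium and magnesium handling genes and of 5 lists of other pathway genes past the filter, 1 point a gene, filled red where called higher, blue where called lower and white where not called, with each list's median as a black bar. The grey band, -0.58 to 0.54, spans the middle quartiles of all tested genes with their median as a grey line. The list medians include -1.31 for the claudins (-0.48 with no filter) and -1.06 for the regulators (-0.92 with no filter). For other calcium entry, extrusion and buffering genes the median is 0.78 (0.55 with no filter).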

How the data were processed

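Kidney RNA of 10 libraries (5 IRI, 5 sham) was analysed from the table that the authors deposited, which holds whole-number counts and FPKM per gene. The submitters' processing notes list the build GRCm39 with HTSeq 0.6.1, HISAT2 2.0.1 and cutadapt 1.9.1, and no source used here says whether counting used strand. Each deposited FPKM value was recovered from count, exon length and library total to within 0.005 units or 0.1%. Symbols were found for 52083 of 55359 genes by identifier.

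Counts of the 13324 genes that reached 1 FPKM in at least 5 libraries were fitted with edgeR 4.0.16 (quasi-likelihood test, TMM factors, group as the only term, R 4.3.3). P-values were adjusted by Benjamini-Hochberg over all genes, called under 0.05, and the SE is the log2 fold change divided by the root of F. The code was tested on simulated data. Ratios within a library used counts plus 0.5. Alternatives were library totals, DESeq2 size factors, DESeq2 1.42.0, limma 3.58.1 on log2(FPKM + 1) or log2(FPKM + 0.1), other filters and thresholds, a replicate block, and each library left out. The 10 genes, the lists and the pairs were chosen with earlier results of these data known. Named were all 10 genes, up to 3 called genes of largest change per list, Slc12a3, Slc12a1, Trpv6 and the 3 most alike genes of each called gene, passing over predicted genes; others are said to be named after their values were seen. Tusc3 was not analysed here. Promoters are RefSeq windows on GRCm38.p6, and no coordinate was converted.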

Additional observations from a re-analysis of the deposited data

Results flagged for a closer look

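In 7 of 108 groups of 5 values examined (6.48%), the highest or lowest library stood apart from the other 4 by Dixon's criterion (gap over range above 0.71), where chance gives about 1 in 20. Trpm6 was 8.16 FPKM in IRI replicate 1, against 1.94 to 3.17 FPKM in the other IRI libraries. S100g was 2609 FPKM in IRI replicate 2. Anxa2 was 111.45 FPKM in IRI replicate 1, its lowest IRI value, and Slc22a7, a proximal tubule transporter, was 11.04 FPKM in IRI replicate 2. Among sham libraries, Pdgfrb, a pericyte marker, was 9.25 FPKM in replicate 5, Stim1 was 2.10 FPKM in replicate 3, and the log2 ratio of Pvalb over Slc12a3 was -4.93 in replicate 5.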

How the results depend on the processing

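The 6 calls among the 10 genes kept their direction and their side of the threshold under every alternative run on single genes. Among the 4 genes not called, Trpm6 was called higher under library totals (0.85, adjusted p = 0.0493), and Casr changed sign in limma on log2(FPKM + 0.1), at 0.0079 on the log2 scale. Over all genes, 3005 were higher and 2685 lower among genes averaging 5 FPKM or more, 1589 and 1999 with at least a 2-fold change, and leaving out 1 library gave 4352 to 4682 higher and 4044 to 4410 lower. Of the other calcium entry, extrusion and buffering genes, 1 was lower under library totals and 4 with no filter. Calcium store genes called lower numbered 1 to 2 with 1 library left out (2 without IRI replicate 1 and 2 without IRI replicate 3). With a mean of at least 5 FPKM, 1 other magnesium transport gene was higher and 2 were lower, and with no filter 2 claudins were higher and the claudin median was -0.48, above that of the regulators (-0.92). Atp2b1 over Atp2b4 passed the threshold as a ratio of FPKM + 1 (0.33, adjusted p = 0.0437). In edgeR with a replicate block, 4221 genes were higher and 4097 lower, and the 10 genes gave 2 higher and 4 lower. Same-numbered libraries did not deviate together (correlations -0.25 to 0.06). The labels do not say whether the numbers pair the libraries, and these correlations cannot settle it. With the replicate block as a sign-flip test, 0 of 11 ratios passed (adjusted p = 0.0764 for 9 of them), where the smallest p it can give is 0.0625. The causes of these changes were not tested, apart from the fewer genes or assignments that the filters and the sign-flip test leave. Depth limits Pvalb in IRI (9 to 54 counts per library) and Cldn14 (0 to 49). It also limits Tmem207 in IRI (9 to 38). In sham it limits Retnlg (0 to 3 counts per library), S100a8 (0 to 10), S100a9 (4 to 13) and Trpv6 (16 to 31).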
